A study of Mus musculus with 12 samples.

Results

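The dystrophin-glycoprotein complex is represented here by 8 genes, taken by name from the 55413 genes of the GENCODE M21 annotation of the mouse genome (build mm10): Dmd, Utrn, Dag1, Sgca, Sgcb, Sgcd, Sspn and Dtna. The assay was CUT&RUN: a nuclease tethered by an antibody cuts out the DNA near the antibody's target in intact nuclei, and the fragments are sequenced. The antibodies recognised H3K4me3, a histone mark of active promoters, or MBD2, a protein that binds methylated CpG. All cells came from C2C12, 1 mouse myoblast line, differentiated in medium with 2% horse serum: day 0 cells, day 1 cells, and on day 5 the myotubes and the unfused reserve cells, which mild trypsin treatment had parted. The labels name no genetic change and no other agent, each antibody and cell state has 1 library, and the 4 IgG libraries of the 12 samples were not analysed here. The labels give no purity for the day 5 fractions.

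Dystrophin, the product of Dmd, ties cortical actin to dystroglycan in the muscle membrane, and dystroglycan in turn binds laminin outside the fibre. Sarcoglycans and sarcospan stabilise dystroglycan in the membrane, and dystrobrevin recruits syntrophins to the inner face. Utrophin is a widely expressed relative of dystrophin that takes its place in immature muscle. Loss of dystrophin or of any of several sarcoglycans, though not of every one, causes muscular dystrophy.

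The H3K4me3 lists held 19218, 17665, 26034 and 15920 peaks on chromosomes 1 to 19, X and Y, for day 0, day 1, myotubes and reserve cells in turn, and the MBD2 lists held 14948, 452, 288 and 111. The myotube H3K4me3 library stood apart from the other 3, with a median peak fold enrichment of 9.55 against 29.0 to 39.8, a median pileup of 24 fragments against 91 to 104, and a median length of 1217 bp against 1729 to 1936 bp. Read totals: not given in the sources used here. As a guide to depth, the lowest local background per list, in fragments per base, was 1.08 to 1.47 for H3K4me3 and 0.286 to 0.947 for MBD2. H3K4me3 lay at the promoters of 4 of 4 myoblast markers in every library, at 1, 5, 5 and 4 of 5 markers of differentiated muscle, and at 0 of 4 genes of liver, blood and glia in every library. Reserve cells therefore carried the mark at most differentiated muscle markers, and the part of this in the day 5 comparisons was not tested. With 1 library per group no difference has a replicate check, so no p-value is given.

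Most genes of the complex already carried H3K4me3 in myoblasts, and Dmd gained it only in the myotube library. A gene was called marked when at least 1 bp of a peak fell in its promoter, taken as every position within 1 kb of a transcript start. At day 0, 7 of the 8 genes were marked, against 57.3% of protein-coding genes. The same 7 genes were marked at day 1, where 57.0% of protein-coding genes were, and in reserve cells, where 55.5% were. In myotubes all 8 genes were marked, against 58.2% of protein-coding genes. From day 0 to myotubes the 1 unmarked gene gained the mark, as did 5.76% of unmarked protein-coding genes. None of the 7 marked genes lost it, as 2.72% of marked protein-coding genes did. From day 0 to day 1 there was no gain, against 1.72%, and no loss, against 1.87%. From day 0 to reserve cells there was again no gain, against 1.38%, and no loss, against 4.12%. Set against reserve cells, Dmd was the 1 gene that differed in myotubes, where 7.66% of unmarked protein-coding genes were marked and 1.32% of marked ones were not.

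**Figure D1:**
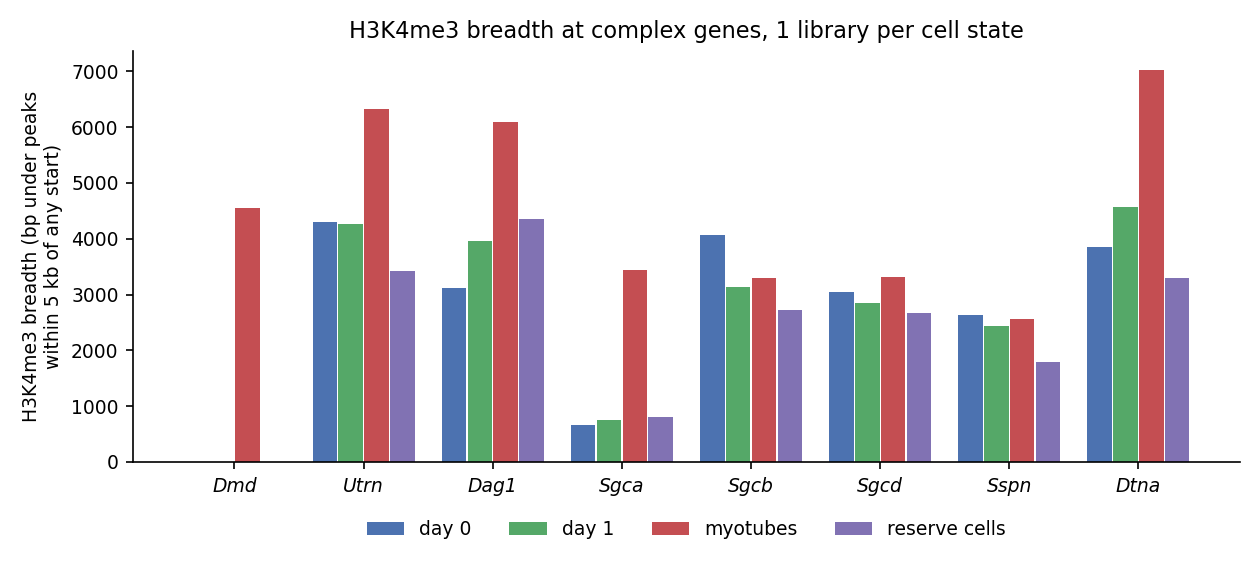
H3K4me3 breadth of the 8 genes, in bp covered by peaks within 5 kb of any transcript start (bars, 1 library per cell state, so no error bar). Dmd has a bar in myotubes alone, at 4544 bp, and Dag1, Sgca, Utrn, Sgcd and Dtna have their highest bars in myotubes.

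Dmd (gene ENSMUSG00000045103.17, mm10 chromosome X, 82948870 to 85206141, plus strand) encodes dystrophin and spans 2.26 Mb with 14 transcripts. Its H3K4me3 breadth, the number of bases under peaks within 5 kb of any transcript start, was 0 bp at day 0, 0 bp at day 1, 4544 bp in the myotubes and 0 bp in reserve cells. All of the signal called was therefore in the myotube library. A peak of 2947 bp (82948779 to 82951725, fold enrichment 8.55, pileup 18 fragments) began 91 bp before the first start, that of full-length muscle dystrophin, and a second of 1866 bp (82952307 to 82954172, fold 6.30, pileup 13) followed in the first intron. The promoter peak stood just below the middle of its list, in which 47.2% of peaks had a lower fold and the median fold was 9.55. Its fold was the lowest among the strongest promoter peaks of the complex genes in that library. When only the stronger 50% of each list by −log10 q was kept, Dmd had no peak in any library, and when each list was cut to the same number of peaks the promoter peak stayed and the breadth was 2947 bp. No other peak of the 8 lists lay anywhere in the gene, and this includes the inner start near 85048295 that gives the short dystrophin of non-muscle tissues. On chromosome X as a whole the myotube list held 3.43 H3K4me3 peaks per Mb, against 0.886 per Mb in Dmd.

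The 250 bases before the first start of Dmd and before the inner start of Sgca are shown because these are the genes whose H3K4me3 was absent or narrow at day 0 and broad in myotubes. Both read 5′ to 3′ along the gene, with capitals for E-boxes (CANNTG, the site of MyoD-type factors), the CArG box (the site of SRF) and the MEF2 motif, searched on both strands.
Dmd, chrX:82948620-82948869, plus strand: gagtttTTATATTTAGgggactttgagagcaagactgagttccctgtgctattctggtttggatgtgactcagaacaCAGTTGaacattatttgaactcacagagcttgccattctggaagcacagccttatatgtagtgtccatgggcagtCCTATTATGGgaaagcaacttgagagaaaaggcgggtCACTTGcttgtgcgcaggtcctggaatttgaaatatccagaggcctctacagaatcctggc
Sgca, chr11:94973490-94973739, minus strand: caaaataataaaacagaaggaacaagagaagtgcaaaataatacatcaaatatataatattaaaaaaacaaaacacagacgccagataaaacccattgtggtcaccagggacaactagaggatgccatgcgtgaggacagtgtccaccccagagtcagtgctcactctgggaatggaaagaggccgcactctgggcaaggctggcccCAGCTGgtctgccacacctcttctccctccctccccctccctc
In Dmd the E-boxes began 173 and 61 bases before the start, the CArG box 98 bases before it and the MEF2 motif 244 bases before it, where it overlaps a TATAAA match. The 1 E-box of Sgca, CAGCTG, began 43 bases before its start. Among 32851 RefSeq promoters (assembly GRCm38.p6, the same 250 bases), 66.2% held an E-box, 13.0% the form CAGCTG, 1.47% a CArG box, 2.92% a MEF2 motif and 12.4% TATAAA. These are matches of letters and not measured binding. Both stretches were poor in CpG, with 2 in Dmd and 3 in Sgca against a median of 6.

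**Figure D2:**
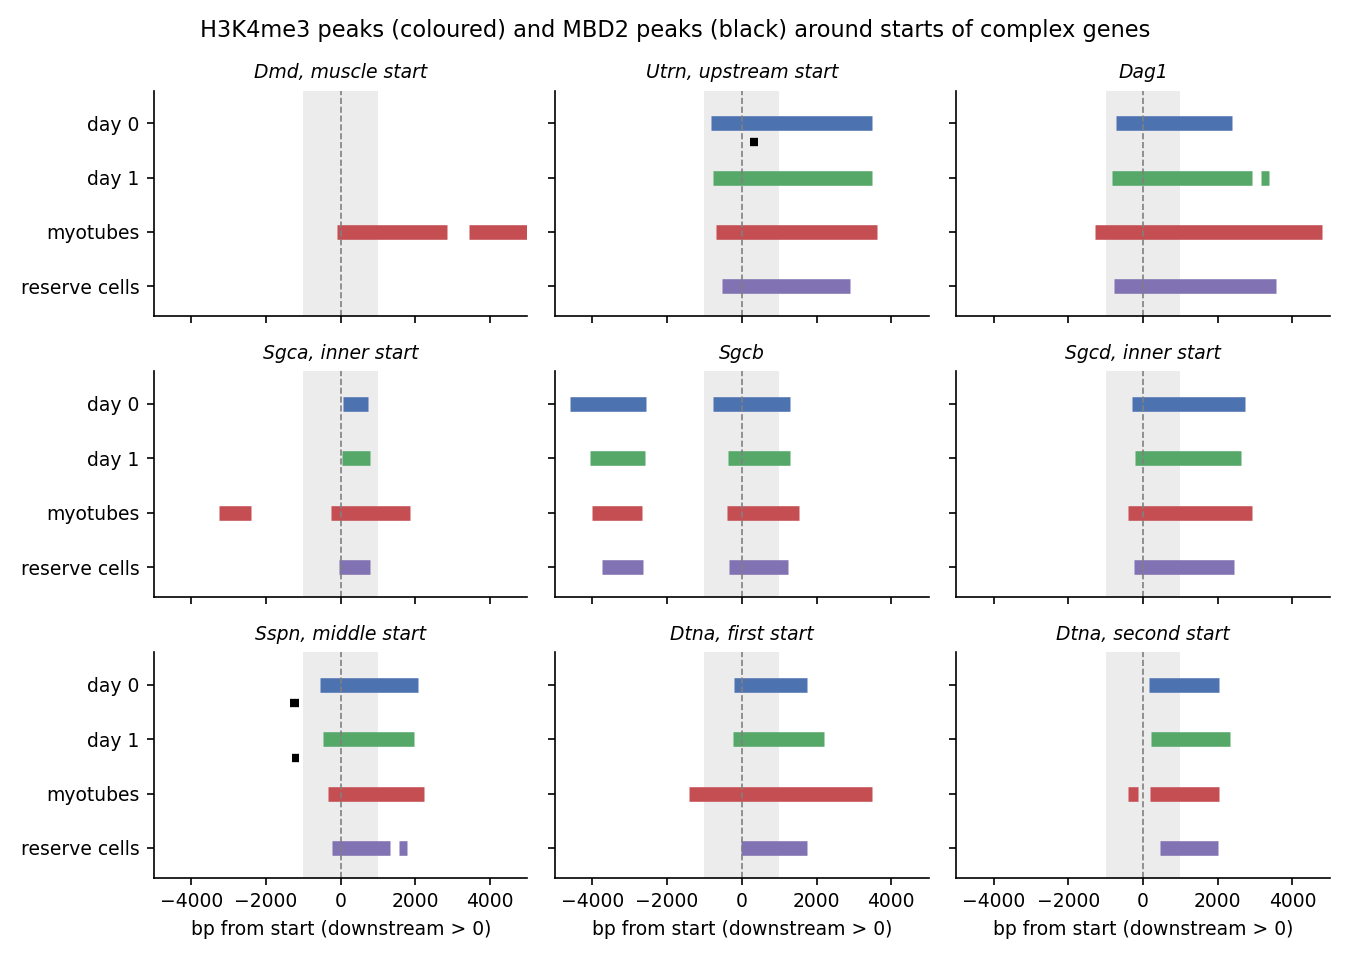
Peaks within 5000 bp of 9 starts of the complex genes (x axis, bp from the start, downstream positive; grey band, the 1 kb either side). H3K4me3 peaks are coloured by cell state and MBD2 peaks are black: the Dmd peaks are in myotubes alone, and the myotube peaks of Dag1, Sgca, Sgcd and Dtna (first start) reach farther on both sides than those of the other libraries.

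Utrn (chromosome 10, 12382188 to 12869365, minus strand) encodes utrophin, and it carried the strongest H3K4me3 promoter of the complex in every library. At its outermost start the peak was 4305 bp long at day 0, 4269 bp at day 1, 4309 bp in the myotubes and 3423 bp in reserve cells, with folds of 71.8, 129.9, 69.4 and 86.4. The main peak was thus shortest in reserve cells and of nearly equal length in the other 3. Within each list 92.4%, 99.6%, 99.2% and 95.3% of peaks had a lower fold. The breadth over all starts was 4305, 4269, 6320 and 3423 bp, and the excess in myotubes came from small peaks downstream of 2 inner starts. These were 501 bp long with a fold of 5.97 near 12858371, and 493, 426, 362 and 434 bp long with folds of 4.15 to 5.46 between 12821733 and 12824316. Neither start had a peak within 1 kb.

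Dag1 (chromosome 9, 108204634 to 108263958, minus strand) encodes the precursor that is cleaved into alpha- and beta-dystroglycan, and it has 1 start group, meaning a set of starts within 1 kb of each other. Its breadth was 3109 bp at day 0, 3963 bp at day 1, 6088 bp in the myotubes and 4351 bp in reserve cells. Day 0 was lowest and myotubes highest, 1.96 times day 0 and 1.40 times reserve cells. The promoter peak reached 2380 bp downstream of the start at day 0, 2911 bp at day 1, 4804 bp in the myotubes and 3565 bp in reserve cells. Its fold was 45.9, 51.9, 36.3 and 57.1, and in myotubes its summit lay 1748 bp downstream, outside the promoter window of its starts, against 309 to 1113 bp in the other libraries.

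Utrn and Dag1 were marked in all 4 libraries, and the 250 bases before their starts are shown beside those of Dmd and Sgca for their CpG, here in capitals.
Utrn, chr10:12869366-12869615, minus strand: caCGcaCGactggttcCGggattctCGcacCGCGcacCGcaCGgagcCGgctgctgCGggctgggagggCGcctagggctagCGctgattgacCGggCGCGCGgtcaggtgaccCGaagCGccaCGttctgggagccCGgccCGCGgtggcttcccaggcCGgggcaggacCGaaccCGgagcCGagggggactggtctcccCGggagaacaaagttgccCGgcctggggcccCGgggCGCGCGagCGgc
Dag1, chr9:108263959-108264208, minus strand: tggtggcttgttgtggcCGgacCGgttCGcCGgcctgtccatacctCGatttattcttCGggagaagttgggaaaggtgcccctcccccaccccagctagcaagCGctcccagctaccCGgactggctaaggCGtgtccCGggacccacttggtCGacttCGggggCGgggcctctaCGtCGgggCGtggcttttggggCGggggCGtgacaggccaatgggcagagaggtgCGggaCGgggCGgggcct
Utrn held 33 CpG in this window, and 96.0% of RefSeq promoters held fewer. Dag1 held 21 CpG (83.7% held fewer), Sgcb 11 (64.4%), Sspn 6 (49.6%), Sgcd 5 (44.4%), Sgca 3 (29.0%) and Dmd 2 (18.8%). The promoter sequence of Dtna was not analysed here. The genes with the fewest CpG were thus Dmd and Sgca, while Dag1, also broader in myotubes, was rich in CpG.

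Sgca (chromosome 11, 94962791 to 94976327, minus strand) encodes alpha-sarcoglycan, the sarcoglycan most restricted to striated muscle. At the inner start, 94973489, the peak was 664 bp long at day 0, 744 bp at day 1, 2133 bp in the myotubes and 814 bp in reserve cells. Its fold was 8.02, 12.02, 48.2 and 22.1 and its pileup 20, 34, 115 and 45 fragments. The myotube peak was the longest. Folds and pileups are the authors' values and are not scaled between libraries, so here and at the other genes they stand side by side and are read only within their own list. The share of the list with a lower fold was 27.1% at day 0, 31.5% at day 1, 91.3% in the myotubes and 36.0% in reserve cells. Here and at the other genes such shares also depend on the list. The median fold of the myotube list was 9.55, against 29.0 to 39.8 in the others, so a similar fold ranks higher in it. In myotubes the outermost start, 94976327, carried a peak of its own (862 bp, fold 3.89), and 447 bp of signal (fold 5.23) lay farther upstream (94979216 to 94979662). The breadth over all starts was 664, 744, 3442 and 814 bp, which makes myotubes 5.18 times day 0 and 4.23 times reserve cells. With each list cut to the same number of peaks, the myotube breadth was 2133 bp and the other 3 values were the same. With the stronger 50% of each list it was again 2133 bp, and 0 bp in the other 3 libraries. The innermost start group counts as marked in myotubes because the edge of the large peak just enters its 1 kb window.

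Sgcb (chromosome 5, 73632749 to 73647790, minus strand) encodes beta-sarcoglycan, which is made in many tissues. Its promoter peak was 2049 bp long at day 0, 1660 bp at day 1, 1936 bp in the myotubes and 1598 bp in reserve cells, with folds of 48.5, 31.3, 25.2 and 23.9. The myotube peak lay within the range of the other 3 lengths, and the peak also reaches within 1 kb of a start of the predicted gene Gm43799. Breadth within 5 kb was 4070, 3132, 3296 and 2720 bp, and it includes a second peak of 2021, 1472, 1360 and 1122 bp at the neighbouring Spata18.

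Sgcd (chromosome 11, 46896253 to 47988969, minus strand) encodes delta-sarcoglycan and spans 1.09 Mb. It carried H3K4me3 at 1 of 4 start groups, 47379522, and never at the 3 farther upstream. That peak was 3038 bp long at day 0, 2855 bp at day 1, 3307 bp in the myotubes and 2676 bp in reserve cells, with folds of 48.5, 28.8, 21.2 and 26.9. Its length differed little between states, with myotubes 1.09 times day 0.

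Sspn (chromosome 6, 145931641 to 145965223, plus strand) encodes sarcospan, a membrane protein of the tetraspanin type that associates with the sarcoglycans. H3K4me3 lay at the middle of its 3 start groups, 145934122, in a peak of 2627 bp at day 0, 2441 bp at day 1, 2567 bp in the myotubes and 1569 bp in reserve cells. The folds were 49.6, 59.8, 20.5 and 38.9. Reserve cells had the shortest peak, followed by a separate piece of 217 bp (fold 4.80), and their breadth of 1786 bp was also the smallest.

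Dtna (chromosome 18, 23415135 to 23659715, plus strand) encodes alpha-dystrobrevin, which binds dystrophin and the syntrophins. It had 2 marked start groups. At the first, 23415135, which begins 5 of its 6 protein-coding transcripts, the peak was 1961 bp long at day 0, 2435 bp at day 1, 4896 bp in the myotubes and 1748 bp in reserve cells. The folds there were 16.2, 23.7, 63.0 and 8.20, and the share of the list with a lower fold was 39.8%, 40.0%, 98.3% and 22.3%. The myotube peak was the longest and the reserve cell peak the shortest. At 23496835, the start of a transcript that is not protein-coding, the peak was 1889, 2132, 1852 and 1551 bp long, with folds of 63.9, 41.1, 16.2 and 37.9. The share of the list with a lower fold was 87.3%, 52.2%, 57.6% and 48.1% there. Ranked within its list, the first start therefore stood below the second in 3 libraries and above it in myotubes.

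**Figure D3:**
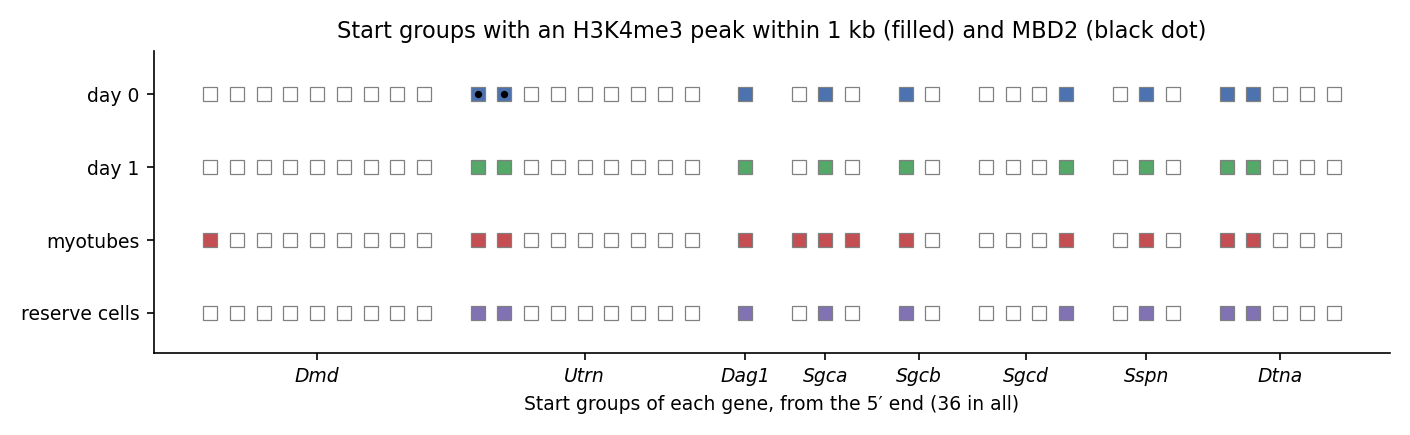
The 36 start groups of the 8 genes in order from the 5′ end (x axis) by cell state (y axis). A filled square has an H3K4me3 peak within 1 kb and a black dot an MBD2 peak: the filled squares number 9, 9, 12 and 9 for day 0, day 1, myotubes and reserve cells in turn.

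Of 36 start groups in the 8 genes, 9 carried H3K4me3 at day 0, 9 at day 1, 12 in the myotubes and 9 in reserve cells. The 3 further groups in myotubes were the first of Dmd and the outermost and innermost of Sgca. Of the 21 groups that begin a protein-coding transcript, 8, 8, 11 and 8 were marked. Most alternative starts were never marked: 8 of 9 in Dmd, 7 of 9 in Utrn, 3 of 4 in Sgcd, 3 of 5 in Dtna, 2 of 3 in Sspn, 1 of 2 in Sgcb, and none of those in Dag1 and Sgca. The marked share of start groups over all genes was not counted. These counts therefore describe the 8 genes and do not set them apart from other genes.

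Breadth in myotubes was at least 1.5 times that of day 0 in 4 of the 8 genes, Dmd (from 0), Dag1, Sgca and Dtna, against 12.4% of protein-coding genes with a peak in either library. None was smaller by that factor, against 14.9%. Against reserve cells 4 genes were broader by that factor in myotubes, Dmd (from 0), Utrn, Sgca and Dtna, against 24.2%, and none was narrower, against 3.85%. Within 3 kb instead of 5 kb of a start, 3 genes passed the factor against day 0, and Dag1 was no longer among them. Against reserve cells Utrn did not pass within 3 kb, with equally long lists, with basic transcripts only or with the stronger 50% of each list. Over the 7 genes marked in both libraries, the median ratio of myotubes to day 0 was 1.47, against 0.905 over 12233 protein-coding genes. The ratio was above 1 in 5 of the 7, against 33.2% of protein-coding genes, and the exceptions were Sgcb (0.810) and Sspn (0.977). The median of 1.47 was the ratio of Utrn, which depended on the setting. With equally long lists Utrn had 4309 bp in myotubes and 4305 bp at day 0. Within 3 kb of a start it had 4825 bp in myotubes and 4305 bp at day 0. Reserve cells over day 0 gave a median of 0.857, against 0.782, with 2 of 7 above 1, Dag1 and Sgca, against 5.75% of protein-coding genes. Day 1 over day 0 gave 0.992, against 0.905, with 3 of 7 above 1, against 19.7% of protein-coding genes, and here Sgca, Dag1 and Dtna had ratios of 1.12, 1.27 and 1.19. Myotubes over reserve cells gave 1.44, against 1.15, and the ratio was above 1 in 7 of 7 genes and in 76.6% of protein-coding genes. The first and last of these comparisons use the same myotube library, and the first 3 share day 0. How far the lower fold of the myotube library bears on breadth was not tested.

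**Figure D4:**
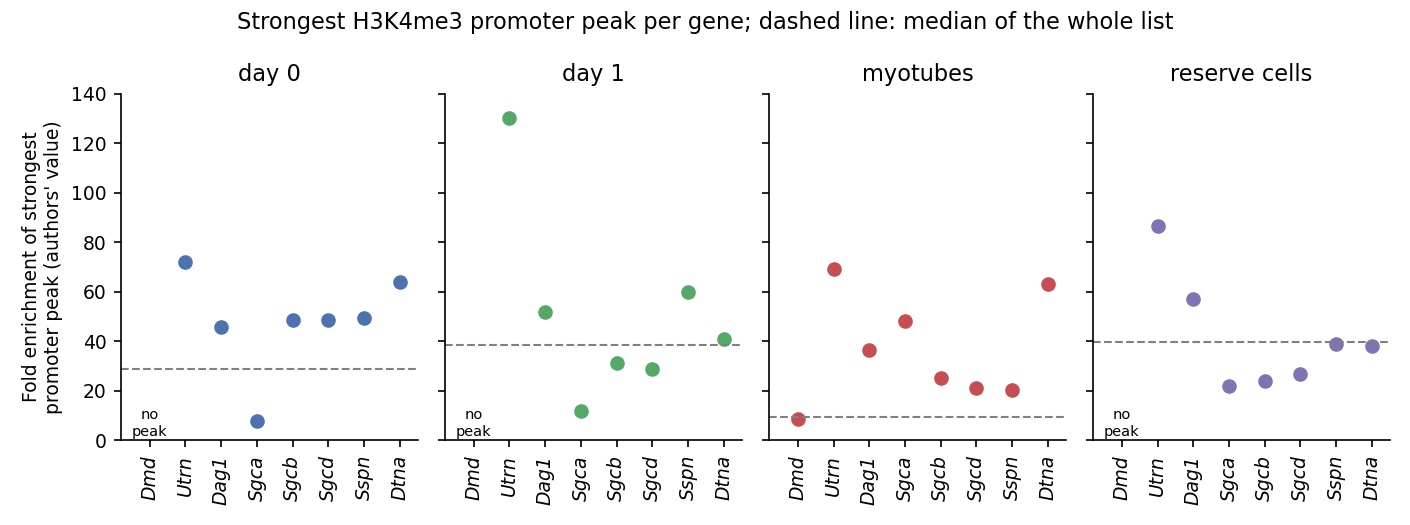
Fold enrichment, as the authors give it, of the strongest H3K4me3 promoter peak of each gene (points) in each library, with the median of that whole list as a dashed line. Utrn is the highest point in every panel, Dmd has a point in myotubes alone, and Sgca is the lowest marked gene at day 0 (8.02), at day 1 (12.02) and in reserve cells (22.1) but stands behind only Utrn and Dtna in myotubes (48.2).

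MBD2 at the promoters of the complex was called at day 0 alone, and in a share of the genes no different from the background. At day 0, 1 of the 8 genes had an MBD2 peak at a promoter, Utrn, against 12.5% of protein-coding genes. In the day 1, myotube and reserve cell libraries the count was 0 of 8, against 1.04%, 0.684% and 0.264%. The Utrn peak (chromosome 10, 12868930 to 12869156, 227 bp) lay 209 to 435 bp downstream of the outermost start, inside the H3K4me3 peak and over an annotated exon. It was weak, with a fold of 5.15 and a pileup of 6 fragments, and 32.2% of day 0 MBD2 peaks had a lower fold. It held 19 CpG, or 8.37 per 100 bp, against a median of 1.24 per 100 bp over the 14948 peaks of the list.

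Inside the genes, MBD2 at day 0 also lay away from promoters. Utrn held 7 peaks in all, 14.4 per Mb against 7.64 per Mb on chromosome 10. The strongest (12787810 to 12788615, 806 bp, fold 20.6, pileup 27) was intronic, 24934 bp from the nearest start. Another (12821291 to 12821781, fold 7.35) lay where myotubes had the row of small H3K4me3 peaks described above, and a day 1 H3K4me3 peak of 253 bp (fold 3.42) overlapped it. Dtna held 1 intronic peak (23454158 to 23454684, 527 bp, fold 11.5). Sspn held 2, a strong one between its first and middle starts and a weaker one (145943541 to 145943752, 212 bp, fold 4.41) 9419 bp from the nearest start. Sgcd held 1 in 1.09 Mb, 0.915 per Mb against 8.04 per Mb on chromosome 11. Dmd held none in 2.26 Mb, where chromosome X had 1.04 per Mb, and neither did Dag1, Sgca or Sgcb. In the other 3 MBD2 libraries, whose lists are 452 peaks or shorter, the 1 peak in any of the 8 genes was at Sspn.

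Sspn had the strongest MBD2 peak within 5 kb of a start, between its first and middle starts, 1103 to 1350 bp upstream of the marked one and so outside the promoter window. At day 0 it was 248 bp long with a fold of 20.8 and a pileup of 110 fragments over a background of 4.34 per base, and 98.0% of the list had a lower fold. At day 1 it was 194 bp long with a fold of 6.95 and a pileup of 20, and the lists of myotubes and reserve cells had no peak there. Its sequence, with CpG in capitals, is shown because it is not specific to Sspn.
Sspn MBD2 peak, chr6:145932772-145933019, plus strand: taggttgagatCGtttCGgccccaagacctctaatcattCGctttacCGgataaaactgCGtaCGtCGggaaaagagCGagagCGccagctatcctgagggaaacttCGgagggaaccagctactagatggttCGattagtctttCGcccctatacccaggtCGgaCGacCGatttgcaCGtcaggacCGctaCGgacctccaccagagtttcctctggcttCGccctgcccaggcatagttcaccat
It held 19 CpG, 7.66 per 100 bp. On the assembled chromosomes of GRCm38.p6 it had 11 other copies on 11 chromosomes, at 93.1% to 100% identity over at least 90% of its length. Of these copies 5 carried MBD2 at day 0, 2 at day 1, 0 in the myotubes and 2 in reserve cells. Its letters also resemble large-subunit ribosomal RNA, whose genes stand in long arrays, but this was not checked against a ribosomal sequence. Fragments from such copies cannot be told apart in a peak list, and their part in the Sspn peak was not tested. None of the other MBD2 peaks in the 8 genes had a copy at these limits.

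Myotubes also had small H3K4me3 peaks within these genes, away from any start. Dag1 held 4, of 331, 1053, 247 and 326 bp with folds of 4.57 to 6.75, and Dtna held 4, of 220, 637, 238 and 300 bp with folds of 3.60 to 7.20. Utrn held 6, Sgcd 1 (341 bp, fold 3.37) and Dmd the 1 described above. In H3K4me3 peaks per Mb, Utrn had 4.11, 6.16, 14.4 and 2.05 for day 0, day 1, myotubes and reserve cells in turn, and Dtna had 8.18, 8.18, 28.6 and 8.18. The myotube list was denser throughout the genome, at 9.55 peaks per Mb against 5.84 to 7.05 in the other libraries.

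Of the other 58 genes of the pathway, in 6 roles, 50, 51, 50 and 50 carried H3K4me3 at a promoter. Among protein-coding genes the shares were 57.3%, 57.0%, 58.2% and 55.5%. Of the 8 unmarked at day 0, 1 gained the mark by day 1, 3 in myotubes and 3 in reserve cells. The shares of unmarked protein-coding genes were 1.72%, 5.76% and 1.38%. Of the 50 marked at day 0, 0, 3 and 3 lost the mark, beside 1.87%, 2.72% and 4.12% of marked protein-coding genes. Breadth in myotubes was at least 1.5 times that of day 0 in 9 of the 53 with a peak in either library, and at most 1/1.5 of it in 10, beside 12.4% and 14.9% of protein-coding genes.

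Among the sarcoglycans outside the 8 genes, Sgcz, for zeta-sarcoglycan, had 1693 and 1713 bp at day 0 and day 1 and 0 bp in both day 5 libraries. Sgce, for epsilon-sarcoglycan, was marked throughout (4267, 3946, 3573 and 3529 bp). Of 6 dystrobrevins and syntrophins, 4 were marked in every library and Sntg1 and Sntg2 in none.

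Of 14 dystrophin-related proteins and membrane partners, 10, 10, 11 and 11 were marked. Cav3, which encodes the caveolin of muscle, had 0, 0, 4963 and 839 bp, with a fold of 30.7 in myotubes. Nos1, for the nitric oxide synthase that syntrophin anchors, was marked in reserve cells alone (1502 bp, fold 9.60), and Krt19, a keratin that binds dystrophin, was marked in all but reserve cells. Plec, for the cytoskeletal linker plectin, was the broadest gene of this role in myotubes, at 28621 bp over its many starts.

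Of 14 laminins and other extracellular ligands, 13, 13, 12 and 12 were marked, and 7 were narrower by the factor of 1.5 in myotubes than at day 0 while 1 was broader. Col6a3, a collagen VI chain, had 5641, 4622, 398 and 2416 bp and no promoter peak in myotubes, and Col6a2 had 1807, 2210, 0 and 2225 bp. Both were thus lowest in myotubes. Lama4, a laminin chain, was marked in myotubes alone (1485 bp, fold 4.18), Lama1 in all but reserve cells, and Lama5 was the broadest in myotubes at 8615 bp. All 18 genes that glycosylate alpha-dystroglycan were marked in every library, and none differed by the factor of 1.5 between day 0 and myotubes. Of 3 other laminin receptors all were marked throughout, with Itga7, the integrin of muscle, broadest in myotubes at 8769 bp.

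MBD2 lay at 15 of the 58 promoters at day 0, 0 at day 1, 1 in the myotubes (Plec, fold 5.11) and 0 in reserve cells, beside 12.5%, 1.04%, 0.684% and 0.264% of protein-coding genes. At day 0 the fold was highest at Plec (12.2) and Vcl (10.3). It was between 6.62 and 7.17 at Sgce, Large2, Lamc1, Rxylt1 and Pomgnt1, and between 3.39 and 5.03 at Syne1, Lamb2, Pomt2, B3galnt2, Ank3, Synm and Nid1. Each of the 15 was also marked by H3K4me3 at day 0, as were 50 of all 58 genes. The share over all genes with MBD2 at a promoter was not counted. By role, 6 of the 18 glycosylation genes carried it, 5 of the 14 partners, 3 of the 14 ligands, 1 of 3 sarcoglycans, and 0 of the 6 dystrobrevins and syntrophins and of the 3 receptors.

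**Figure D5:**
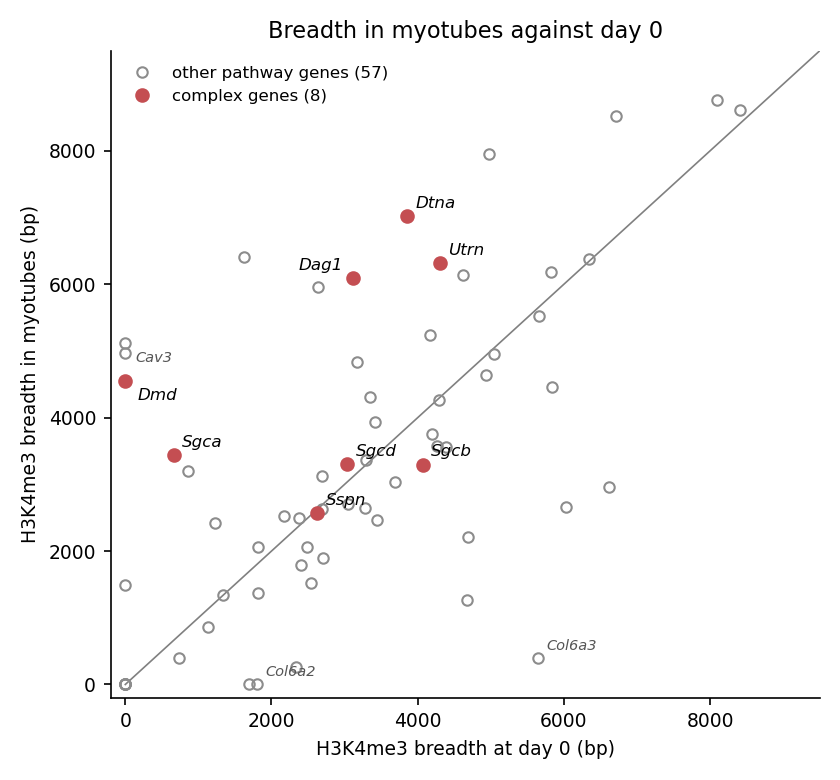
H3K4me3 breadth at day 0 (x axis, bp) against myotubes (y axis, bp) for the 8 complex genes (filled) and 57 other pathway genes (open), with the line of equal breadth. Plec lies outside the axes, and Dmd and Cav3 stand on the left edge, at 0 bp at day 0 and 4544 and 4963 bp in myotubes.

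The protein-coding genes with the most similar breadth across the 4 H3K4me3 libraries, by the smallest summed absolute difference within 5 kb of the outermost 5′ end, are given as a description. For Dmd (0, 0, 4511 and 0 bp by this measure) they were Mybpc2 at a difference of 3 bp, Cnksr1 at 120 bp and Mybpc1 at 179 bp. These genes also had 0 bp at day 0, at day 1 and in reserve cells, so their order rests on the myotube breadth alone. Mybpc2 and Mybpc1 encode myosin-binding proteins of the sarcomere. For Sgca they were Rundc3a (373 bp), Hrh3 (528 bp) and Ablim3 (682 bp). For Dag1 they were Susd6 (1033 bp), then Dcaf6 and Mpc2, which share a promoter region (1326 bp). Dtna was most like Mafa (530 bp), Anxa11 (596 bp) and Tmod1 (743 bp), the last encoding a cap of actin filaments. Utrn was most like Raly and the agouti gene a, which have the same values (180 bp), then Hnrnpul1 (348 bp). Sgcb was most like Ftsj3 and Psmc5 (230 bp), and Sspn like Siva1 (144 bp), then 1700088E04Rik and Polr2f (208 bp). Sgcd had no peak at its outermost 5′ end and so no such neighbour.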

How the data were processed

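Per the submitters' processing notes, reads were trimmed with Trim Galore, mapped to mm10 with Bowtie2, filtered with SAMtools and given peaks with MACS2. Their versions, the peak caller's settings and the role of IgG: not given in the sources used here. Every peak list comes from 1 library. The deposited pileup is a signal, the fragments over the summit, and the authors' fold enrichment sets that pileup against local background, per the file headers. It was read here as a ratio taken after 1 was added to both, so it is not the plain ratio. The deposited columns of −log10 p-values and of −log10 q-values have damaged names and were told by the column order of MACS2 tables. These values are the authors' and serve only to describe, rank or filter within a list.

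From the lists, peaks were set against all GENCODE M21 transcript starts with Python 3.11.15 and pandas 2.3.3, and local background was taken as (pileup + 1)/fold − 1. Sequences came from GRCm38.p6 through pysam 0.24.0, copies were sought with BLAST+ 2.17.0, promoter shares came from the RefSeq promoter table, and figures were drawn with matplotlib 3.10.9. The counting code was tested on simulated data. Starts of 1 gene within 1 kb of each other form a start group. A gain or loss is a change of call, so an edge crossing the 1 kb limit counts. The genes, the 58 pathway genes, the markers and the settings were chosen with earlier results of these data known. Named pathway genes are those whose H3K4me3 call differed between libraries, those with MBD2, and the broadest in myotubes per role; Sntg1 and Sntg2 were named after their values were seen. No sequence of chromosome 18 is shown, and the promoter of Dtna, on that chromosome, was left out of the promoter sequence counts. The MBD2 peak of Dtna did enter the search for copies. Some results that these rules take are not reported here.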

Additional observations from a re-analysis of the deposited data

Results flagged for a closer look

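In 3 genes H3K4me3 breadth in the myotube and reserve cell libraries lay on opposite sides of day 0. Utrn was 2015 bp broader than day 0 in myotubes and stood at -882 bp in reserve cells. Sgcd was 269 bp broader in myotubes and stood at -362 bp in reserve cells. Dtna was 3166 bp broader in myotubes and stood at -551 bp in reserve cells. With equally long lists Utrn had 4309 bp in myotubes and 4305 bp at day 0. Over protein-coding genes marked in both libraries compared, breadth was above day 0 in 33.2% for myotubes and in 5.75% for reserve cells. The share of protein-coding genes on opposite sides was not counted, so the 3 genes are a description. With 1 library per cell state the difference was not tested.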

How the results depend on the processing

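Over 7 alternative settings, 142 of 160 recomputed counts and medians of the complex stayed within 1.5 times the reported value and 18 moved, and for single genes 286 of 320 values stayed and 34 moved. The values that stayed include counts of 0 that remained 0. They also include counts of MBD2 within 5 kb under promoters of 500 bp and 2 kb, which could not change in those settings. The tallies are therefore no measure of robustness. With a promoter of 2 kb either side, MBD2 lay at 2 genes at day 0 and 1 at day 1. With the stronger 50% of each list by −log10 q, H3K4me3 marked 4 genes at day 1 and 2 in reserve cells, with 5 and 3 start groups, 2 genes lost the mark from day 0 to day 1 and 4 from day 0 to reserve cells, 5 gained it from reserve cells to myotubes, and median breadth came to 1066 bp (day 1) and 0 bp (reserve cells). MBD2 then marked 0 promoters at day 0 and lay within 5 kb of a start in 1 gene. In that setting the count of genes marked in myotubes was 7, without Dmd. With lists cut to the same length (15920 H3K4me3 and 111 MBD2 peaks), MBD2 marked 0 promoters at day 0 and lay within 5 kb in 1 gene at day 0 and 0 at day 1. With the summit required inside the window, 1 gene, Dag1, was lost from day 0 to myotubes and 1 from reserve cells to myotubes. The setting with basic transcripts only was chosen after seeing the data. No paired analysis was possible because each group has 1 library. Depth is unknown, so a missing peak says only that none was listed.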
